A study of Mus musculus with 7 samples.

Results

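A set of 10 genes that mark oligodendrocyte precursor cells and the cells they turn into was followed in RNA sequencing libraries from the medial prefrontal cortex (mPFC) of 7 mice. The genes are Pdgfra, Cspg4, C1ql1, Lhfpl3, Olig1, Olig2, Sox10, Gpr17, Neu4 and Enpp6. They were chosen by name, with earlier results of these data known. Their gene identifiers, without the version, were matched to mouse symbols. All 10 were among the 25467 genes of the deposited count table, and all 10 passed the filter on low counts that left 17211 genes for testing. The libraries came from 4 mice treated with rhTSP1, recombinant human thrombospondin-1 (TSP1 below), a secreted matrix protein of astrocytes, and from 3 mice given phosphate-buffered saline (PBS). The labels give no genotype, strain, age, dose, route or time for either group, and the tissue label of each library is brain, with the mPFC named in the titles. Each library stands for 1 animal, since the design text counts 7 separate mice.

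Oligodendrocyte precursors are the dividing glia of the adult cortex. They carry the growth factor receptor encoded by Pdgfra and the proteoglycan NG2 encoded by Cspg4, and they depend on the transcription factors Olig1, Olig2 and Sox10, which stay on as the cells mature. Cells that leave the cycle pass through a committed stage marked by the receptor Gpr17, the sialidase Neu4 and the choline phosphodiesterase Enpp6, before they switch on myelin genes. The 10 genes were therefore read as 4 genes of dividing precursors (Pdgfra, Cspg4, C1ql1, Lhfpl3), 3 genes of the whole lineage (Olig1, Olig2, Sox10) and 3 genes of committed cells (Gpr17, Neu4, Enpp6). The classes overlap in life, since Gpr17 and Neu4 transcripts are already present in some precursors.

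Promoter sequences of 6 of the 10 genes were found in the RefSeq table (GRCm38.p6), each from 250 bases before to 50 bases after an annotated start. Those of 3 genes are shown, because Neu4 and Enpp6, both of the committed class, had unlike profiles over the 7 libraries, and Pdgfra is the defining gene of the dividing class. Capitals mark matches, on either strand, to the SOX-type words ACAAAG and ACAATG or to the OLIG-type E-box words CAGATG and CAGCTG, none of which overlapped another here.
Neu4, chr1:94020243-94020542, plus strand: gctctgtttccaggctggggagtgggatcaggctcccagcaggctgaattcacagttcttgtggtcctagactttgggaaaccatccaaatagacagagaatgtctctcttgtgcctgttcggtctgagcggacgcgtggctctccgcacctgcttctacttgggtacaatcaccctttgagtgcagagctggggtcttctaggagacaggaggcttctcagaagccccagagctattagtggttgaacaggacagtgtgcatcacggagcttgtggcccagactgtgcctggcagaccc
Enpp6, chr8:46986637-46986936, plus strand: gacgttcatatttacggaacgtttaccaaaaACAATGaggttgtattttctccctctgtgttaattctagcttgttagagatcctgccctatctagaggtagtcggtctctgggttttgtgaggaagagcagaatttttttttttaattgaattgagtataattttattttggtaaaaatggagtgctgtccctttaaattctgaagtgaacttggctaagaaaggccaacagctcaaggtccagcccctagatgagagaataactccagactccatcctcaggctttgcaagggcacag
Pdgfra, chr5:75152001-75152300, plus strand: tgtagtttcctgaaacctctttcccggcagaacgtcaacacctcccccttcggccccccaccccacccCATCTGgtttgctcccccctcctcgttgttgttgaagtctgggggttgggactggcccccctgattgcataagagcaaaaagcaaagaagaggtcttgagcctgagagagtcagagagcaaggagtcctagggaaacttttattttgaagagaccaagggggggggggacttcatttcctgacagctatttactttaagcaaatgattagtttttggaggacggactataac
The Enpp6 window held 1 ACAATG, whose first base lies at -219 from the start. The Pdgfra window held 1 CAGATG on the minus strand, at -182, and the Neu4 window held none of the 4 words. Of 32851 RefSeq promoter windows of this length, 28.6% held ACAAAG or ACAATG and 30.6% held CAGATG or CAGCTG, so a single match is common. Of the other matched members, Olig2 held 1 ACAATG on the minus strand, Lhfpl3 held 2 CAGCTG and Cspg4 held none. Olig1, Sox10, Gpr17 and C1ql1 had no entry in the table.

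The libraries held 15090336 to 20755167 counts. TSP1 replicate 4 stood apart from the others. There, all 14 tested markers of striatal projection neurons were higher than in any other library. So were 14 of 15 markers of mature oligodendrocytes and 18 of 23 tested genes of a cell division list. The share of all tested genes that were highest or lowest in a given library was not counted. The summed level of the mature oligodendrocyte markers was 2321, 2540, 3264 and 6475 CPM, that is counts scaled to the size of each library, in TSP1 replicates 1 to 4, against 4502, 3856 and 3547 CPM in PBS replicates 1 to 3. With all 7 libraries, 12 of these 15 markers had log2 fold changes below 0 (median -0.14). Of them 1 was lower at an unadjusted p under 0.05, against 5.44% of all tested genes. Without TSP1 replicate 4 all 15 were below 0 (median -0.56), each with an unadjusted p under 0.05, against 5.41% of all genes tested then. The median was 0.03 without TSP1 replicate 1, 0.00 without TSP1 replicate 2 and -0.01 without PBS replicate 1. For some results below, the value without TSP1 replicate 4 is given as well.

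Levels can be compared between genes only per length of exon. By CPM per kilobase of exon, the mean over the 7 libraries was highest for Olig1, at 54.2 ± 6.86 (SD, n = 7). Gpr17 followed at 17.6 ± 2.34, Sox10 at 14.4 ± 3.14 and Olig2 at 12.6 ± 1.25 CPM per kilobase. Pdgfra was at 7.76 ± 0.653, Lhfpl3 at 6.3 ± 0.899 and C1ql1, which encodes a secreted C1q-like protein, at 5.72 ± 1.18. Neu4 (3.11 ± 0.455), Cspg4 (2.66 ± 0.34) and Enpp6 (1.7 ± 0.726) were the lowest. Neighbours in this order did not overlap in any library between Olig1 and Gpr17, between Olig2 and Pdgfra, and between C1ql1 and Neu4. The other neighbouring pairs overlapped. The order mixes the stages, since Gpr17 stood near the top and Enpp6 last.

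**Figure D1:**
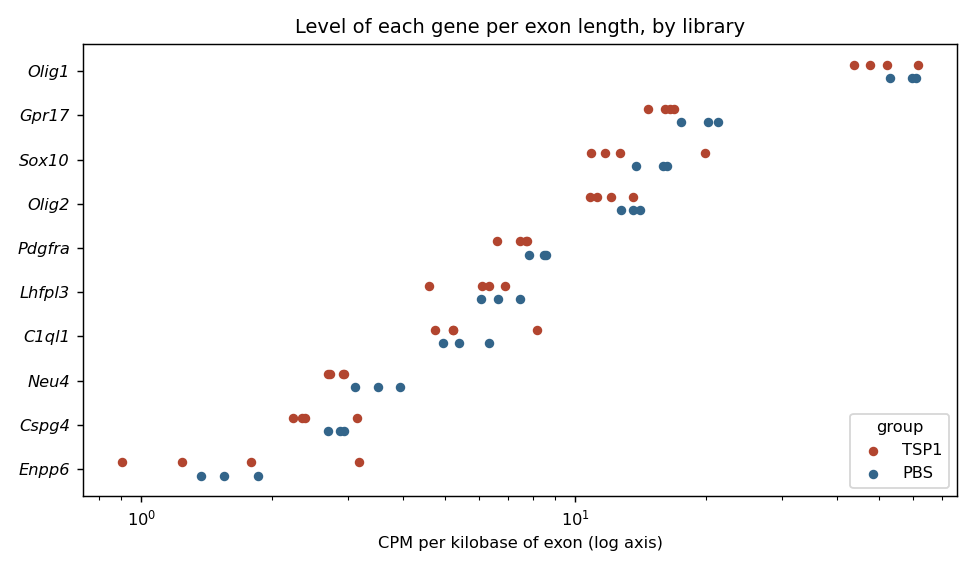
CPM per kilobase of exon (log axis) of the 10 genes, 1 point per library, TSP1 in red above PBS in blue, genes ordered by their mean over the 7 libraries. Olig1 stands alone at the top, with every library above those of Gpr17, and Enpp6 has the widest spread, with TSP1 libraries at both ends.

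The counts behind these values were lowest for Enpp6, with 88 counts in TSP1 replicate 1, and highest for Olig1, with 2763 in PBS replicate 1. Counting error alone gives a standard deviation of 10.7% at 88 counts. Over the 7 libraries the coefficient of variation was smallest for Pdgfra (8.42%) and Olig2 (9.93%) and largest for Enpp6 (42.7%), against a counting error of 7.12% at the mean count of Enpp6.

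The comparison asks whether treatment with TSP1 left the precursor stage and the committed stage at different levels. No gene of the table passed the adjustment over all genes: edgeR's quasi-likelihood test called 0 of 17211 genes (0%) at a false discovery rate (FDR) under 0.05, so 0 of the 10 genes passed. Without adjustment, p was under 0.05 for 1661 genes (9.65%), of which 937 (5.44% of the tested genes) were lower and 724 (4.21%) higher with TSP1. Pdgfra, Gpr17 and Neu4 were among the lower ones. The fitted log2 fold change was below 0 for 8 of the 10 genes, against 48.9% of all tested genes, and its median was -0.17, against 0.00 over all tested genes. The groups did not overlap at Pdgfra, Gpr17 and Neu4, each lower with TSP1, against 5.26% of all tested genes that were lower with no overlap, 4.83% that were higher and 10.1% in either direction. Genes of 1 cell type share its cells, so the 10 are not 10 independent observations. In whole tissue, fewer cells of a type and less RNA per cell cannot be told apart. DESeq2 called 88 genes (0.603% of those with an adjusted p) and edgeR's exact test 107 (0.622%, with 0.471% lower), again with 0 of the 10 genes among them.

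**Figure D2:**
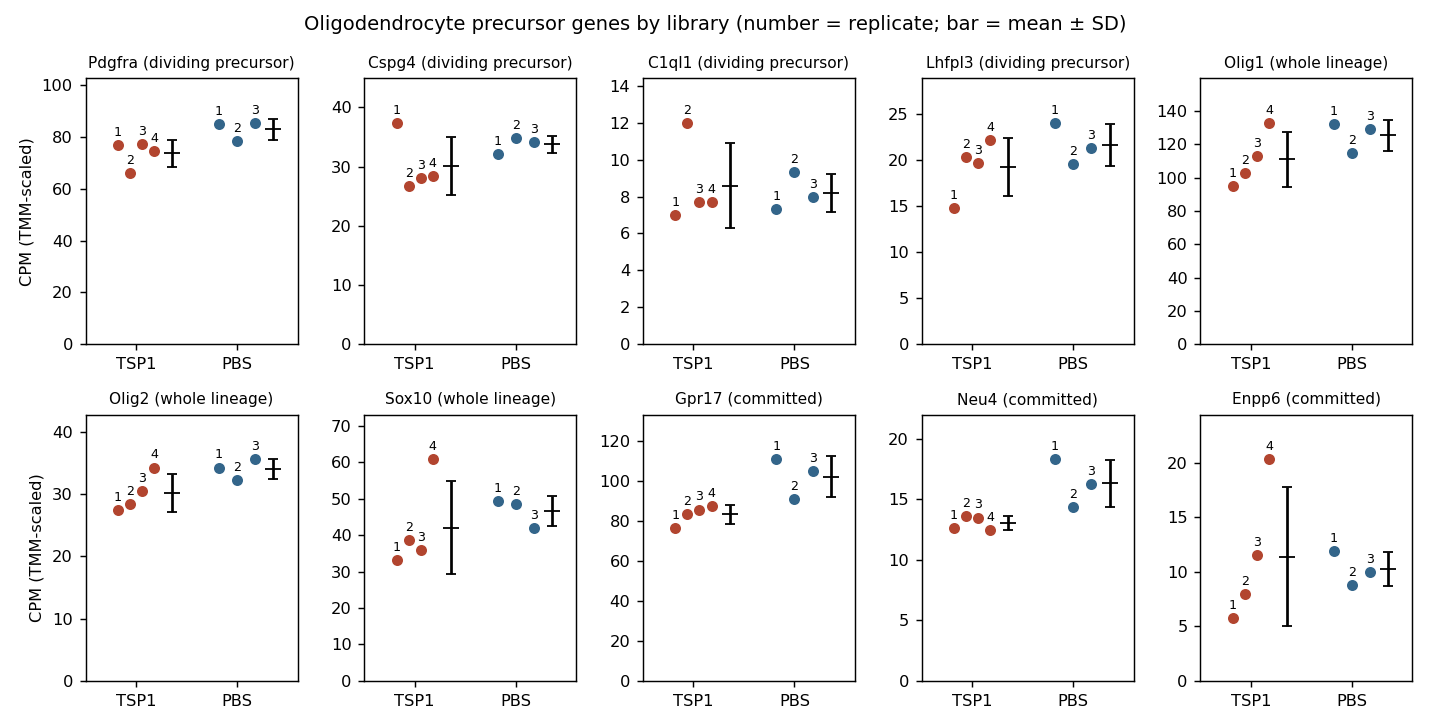
CPM (scaled by TMM, a method that sets library sizes on a common scale) of each gene in each library, TSP1 left and PBS right, with replicate numbers at the points and the mean ± SD as bars. The TSP1 points of Pdgfra, Gpr17 and Neu4 all lie below the PBS points, while TSP1 replicate 4 is the highest point of Olig1, Sox10 and Enpp6.

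Among the genes of dividing precursors, Pdgfra (chromosome 5, 75152292 to 75198215, GRCm38) encodes the receptor for platelet-derived growth factor A, the main mitogen of these cells. It had 77, 66.2, 77.4 and 74.8 CPM in TSP1 replicates 1 to 4, against 85, 78.4 and 85.6 CPM in PBS replicates 1 to 3. All TSP1 libraries lay below all PBS libraries, by a narrow margin between TSP1 replicate 3 and PBS replicate 2. TSP1 mice averaged 73.9 ± 5.22 CPM (SD, n = 4) and PBS mice 83 ± 4 CPM (SD, n = 3), and the fitted log2 fold change was -0.17 ± 0.07 SE in edgeR (adjusted p = 0.468).

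Pdgfra also marks fibroblasts of the meninges and vessels. The fibroblast genes Dcn, a small matrix proteoglycan, and Col1a1, a collagen, were low in these libraries. Dcn had 6.79, 4.41, 8.07 and 6.65 CPM with TSP1, against 9.32, 7.33 and 9.05 CPM with PBS (edgeR log2 fold change -0.41 ± 0.18 SE, adjusted p = 0.496). Dcn and Pdgfra were both lowest in TSP1 replicate 2. Of the 10 meningeal fibroblast markers, 5 had fitted values below 0, none was at 0 counts in any library, and their summed level was 282 to 307 CPM with TSP1 against 265 to 326 CPM with PBS. Their part in the Pdgfra values was not tested. Col1a1 had a log2 fold change of -0.26 ± 0.17 SE in edgeR (adjusted p = 0.669).

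Cspg4 (chromosome 9, 56865033 to 56899870) had 37.4, 26.7, 28 and 28.4 CPM in TSP1 replicates 1 to 4, against 32.1, 34.9 and 34.2 CPM in PBS replicates 1 to 3. TSP1 replicates 2 to 4 lay below every PBS library, and TSP1 replicate 1 lay above every PBS library. The log2 fold change was -0.17 ± 0.10 SE in edgeR (adjusted p = 0.662), and -0.28 (adjusted p = 0.288 in edgeR) without TSP1 replicate 1, where the groups no longer overlapped (against 7.26% of the genes tested then that were lower with no overlap). Pericytes express Cspg4 too. The pericyte receptor gene Pdgfrb had 36.1, 32, 32.8 and 30.4 CPM with TSP1 against 27.6, 27.7 and 27.3 CPM with PBS. Pdgfrb had a log2 fold change of 0.25 ± 0.08 SE in edgeR (adjusted p = 0.313), the opposite sign to Cspg4. Of 9 tested pericyte and smooth muscle markers 5 had fitted values below 0, and Pdgfrb was the 1 that was highest in TSP1 replicate 1. The list mean was 0.01 log2 units in that library and from -0.13 to 0.09 in the others. None of the 10 listed was at 0 counts in a library, and their summed level was 194 to 239 CPM with TSP1 against 200 to 223 CPM with PBS. Their part in the Cspg4 values was not tested.

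Lhfpl3 (chromosome 5, 22746059 to 23275597), a gene of the tetraspan LHFPL family that is used as a precursor marker, had 14.8, 20.3, 19.6 and 22.1 CPM with TSP1, against 24, 19.5 and 21.3 CPM with PBS. The groups overlapped, and TSP1 replicate 1 was the lowest library. The log2 fold change was -0.17 ± 0.12 SE in edgeR (adjusted p = 0.708), -0.06 without that library and -0.24 without TSP1 replicate 4. C1ql1 (chromosome 11, 102939264 to 102946688) had 6.99, 12, 7.68 and 7.68 CPM with TSP1, against 7.31, 9.34 and 7.95 CPM with PBS. TSP1 replicate 2 alone was high, and the other TSP1 values lay close to or among the PBS values. Its log2 fold change of 0.07 ± 0.18 SE in edgeR (adjusted p = 0.937) was -0.13 without TSP1 replicate 2 and -0.01 without PBS replicate 1.

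The whole-lineage genes differed by similar sizes and overlapped between groups. Olig2 (chromosome 16, 91225457 to 91228677), the transcription factor that specifies the lineage, had 27.4, 28.4, 30.5 and 34.3 CPM in TSP1 replicates 1 to 4, against 34.3, 32.3 and 35.6 CPM in PBS replicates 1 to 3 (edgeR log2 fold change -0.18 ± 0.09 SE, adjusted p = 0.544). Olig1, its neighbour on chromosome 16 (91269772 to 91271933), had 95.1, 103, 113 and 133 CPM with TSP1, against 132, 115 and 129 CPM with PBS (edgeR log2 fold change -0.17 ± 0.10 SE, adjusted p = 0.629). In both genes TSP1 replicates 1 to 3 lay below every PBS library and TSP1 replicate 4 did not. Without TSP1 replicate 4 the edgeR log2 fold changes were -0.24 for Olig2 and -0.27 for Olig1.

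Sox10 (chromosome 15, 79154908 to 79165240), which drives myelin genes at later stages, had the widest spread of the 3. It had 33.2, 38.6, 35.8 and 60.8 CPM with TSP1, against 49.5, 48.6 and 42 CPM with PBS. TSP1 replicate 4 was the highest of all libraries, and the other TSP1 libraries were the 3 lowest. TSP1 mice averaged 42.1 ± 12.7 CPM (SD, n = 4) and PBS mice 46.7 ± 4.1 CPM (SD, n = 3), and the log2 fold change of -0.15 ± 0.22 SE in edgeR (adjusted p = 0.888) was -0.38 (edgeR adjusted p = 0.173) without TSP1 replicate 4. Without that library, 6 of the 10 genes had groups with no overlap, all lower with TSP1 (Pdgfra, Olig1, Olig2, Sox10, Gpr17 and Neu4), against 7.82% of the genes tested then, and the median of the 10 genes was -0.25. None of the 10 passed the adjustment there either.

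The committed class held the genes with the smallest p-values of the 10 and also the gene with the widest spread. Gpr17 (chromosome 18, 31942997 to 31949636) encodes a G protein-coupled receptor that is switched on as precursors commit and must be switched off for myelination. It had 76.6, 83.5, 85.9 and 87.7 CPM in TSP1 replicates 1 to 4, against 111, 91.2 and 105 CPM in PBS replicates 1 to 3. Every TSP1 library lay below every PBS library, and PBS replicate 2 lay nearest to the TSP1 range. The TSP1 mean differed from the PBS mean by -18.5%, a log2 fold change of -0.29 ± 0.08 SE in edgeR (adjusted p = 0.235). DESeq2 and the exact test gave Gpr17 adjusted p-values of 0.0891 and 0.0861. Its exons share 188 bases with Lims2 on the opposite strand, and whether counting used strand was not given in the sources used here. Lims2, looked up for that overlap, stood at 9.98 ± 0.414 CPM (SD) in the 4 TSP1 libraries and 11.7 ± 0.408 CPM (SD) in the 3 PBS libraries, with no overlap between groups. Lims2 is also in the list of other precursor genes below, and is counted there among those lower with TSP1. The part of shared reads was not tested.

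Neu4 (chromosome 1, 94020451 to 94028334), a sialidase that removes sialic acid from polysialylated adhesion molecules, likewise had no overlap between groups. It had 12.6, 13.6, 13.5 and 12.5 CPM with TSP1, against 18.3, 14.4 and 16.3 CPM with PBS. The 4 TSP1 libraries lay within 1.09-fold of each other and below all PBS libraries. The log2 fold change was -0.32 ± 0.10 SE in edgeR (adjusted p = 0.333), and without PBS replicate 1, the highest library of Gpr17 and Neu4 alike, it was -0.23 for both genes. Without PBS replicate 1, Gpr17 was the 1 gene of the 10 that kept an unadjusted p under 0.05, against 4.87% of all genes tested then that were lower at that p. Pdgfra also lost it without TSP1 replicate 2 and without PBS replicate 3, where Gpr17 and Neu4 kept it. TSP1 replicate 4, which was high in myelin genes, was not high in either: Neu4 was lowest there.

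Enpp6 (chromosome 8, 46986887 to 47096762) encodes a choline-specific phosphodiesterase of newly forming oligodendrocytes. It had 5.8, 7.96, 11.5 and 20.3 CPM in TSP1 replicates 1 to 4, against 11.9, 8.81 and 9.96 CPM in PBS replicates 1 to 3. The TSP1 libraries lay on both sides of the PBS range and spanned 3.5-fold, against 1.35-fold among PBS libraries. TSP1 mice averaged 11.4 ± 6.4 CPM (SD, n = 4) and PBS mice 10.2 ± 1.56 CPM (SD, n = 3). The log2 fold change of 0.16 ± 0.44 SE in edgeR (adjusted p = 0.945) was -0.27 without TSP1 replicate 4. The lowest and the highest library of Enpp6 were also the lowest and the highest of Sox10, and TSP1 replicate 4 was highest in 14 of 15 mature oligodendrocyte markers. The part of the mature cells in the Enpp6 values was not tested.

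**Figure D3:**
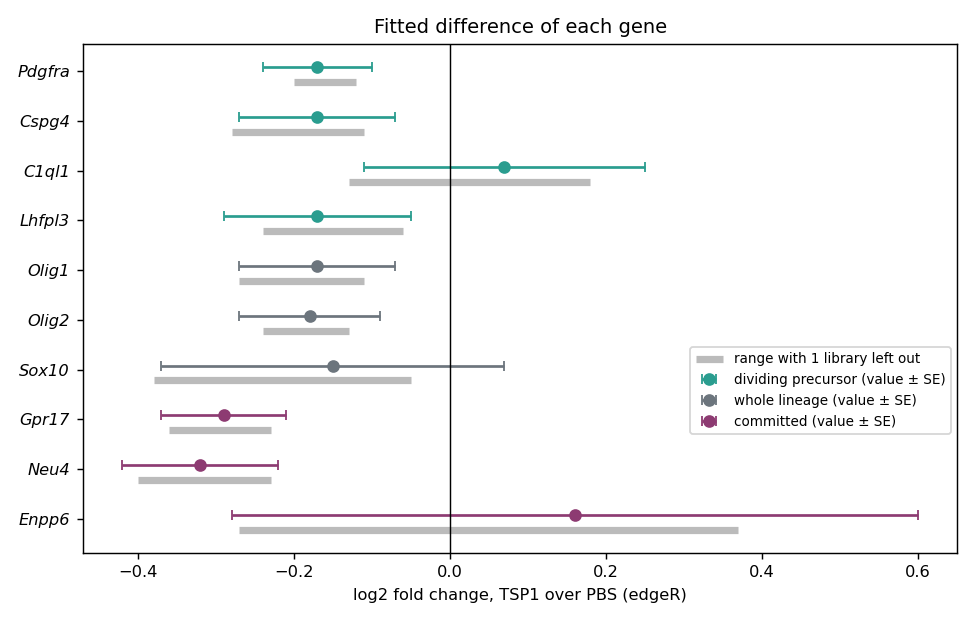
Fitted log2 fold change (TSP1 over PBS) of each gene with its SE, coloured by class, and below it, in grey, the range when 1 library at a time is left out. The ranges of C1ql1 and Enpp6 cross 0, and those of the other 8 genes stay below it.

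The committed class was set against the dividing class within each library, with each gene's log2 CPM taken relative to its own mean over the 7 libraries. The 3 committed genes minus the 4 precursor genes gave -0.30, -0.20, 0.08 and 0.29 log2 units in TSP1 replicates 1 to 4, against 0.23, -0.14 and 0.05 in PBS replicates 1 to 3. The groups overlapped, with means of -0.03 ± 0.27 (SD) in the 4 TSP1 libraries and 0.04 ± 0.18 (SD) in the 3 PBS libraries. The difference between these means, -0.08, rested on single libraries. Leaving out TSP1 replicate 4 made it -0.19, leaving out TSP1 replicate 3 made it -0.12, and leaving out PBS replicate 2 made it -0.17. It shrank to -0.02 when TSP1 replicate 2 was left out, and stood at 0.01 when either TSP1 replicate 1 or PBS replicate 1 was. This mean hid unlike genes. Gpr17 and Neu4 alone, against the same 4 genes, stood at -0.10, -0.12, -0.01 and -0.08 with TSP1, against 0.26, -0.07 and 0.12 with PBS, and PBS replicate 2 lay inside the TSP1 range. Enpp6 alone stood at -0.69, -0.37, 0.25 and 1.03 with TSP1, against 0.16, -0.28 and -0.10 with PBS. These scores were made of the chosen genes and carry no test. The class medians of the log2 fold changes were -0.29 for committed, -0.17 for dividing precursor and -0.17 for whole-lineage genes. Without TSP1 replicate 4 they were -0.30 for committed, -0.15 for dividing precursor and -0.27 for whole-lineage genes.

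**Figure D4:**
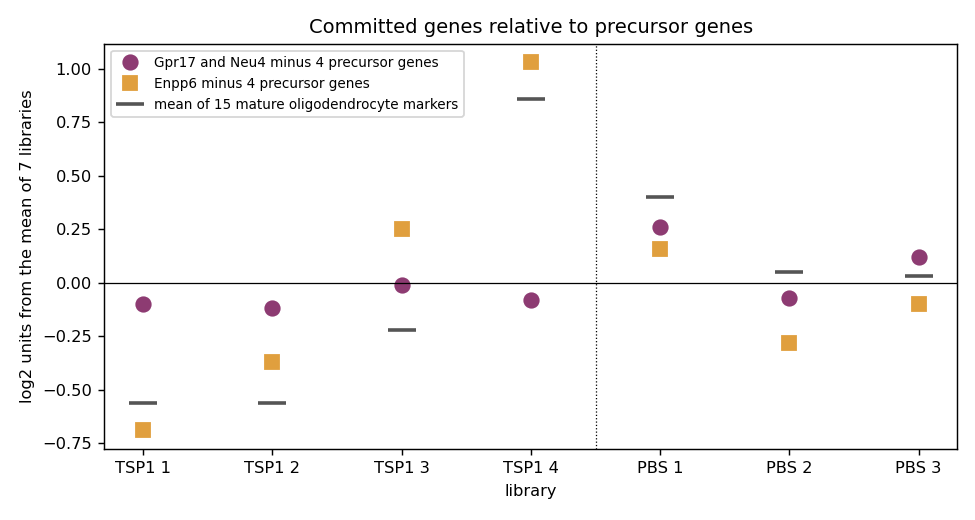
Log2 difference of committed and precursor genes in each library (TSP1 left, PBS right), for Gpr17 with Neu4 (circles) and for Enpp6 (squares), with the mean of the mature oligodendrocyte markers (dashes) as log2 CPM relative to the 7 libraries. Enpp6 runs from -0.69 in TSP1 replicate 1 to 1.03 in TSP1 replicate 4, while Gpr17 with Neu4 stays between -0.12 and -0.01 in the TSP1 libraries.

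Over the libraries the 10 genes did not form a single profile. TSP1 replicate 1 was the lowest library for 7 of the 10 genes, yet it was the highest for Cspg4. It was also the lowest for 9 of 25 other precursor genes and 10 of 16 astrocyte markers. The same held for 3 of 16 microglia markers and 0 of 10 excitatory neuron markers. Its share over all tested genes was not counted. PBS replicate 1 was highest for Lhfpl3, Gpr17 and Neu4, and TSP1 replicate 4 for Olig1, Sox10 and Enpp6. The closest profiles to Gpr17 among 4837 genes with at least its variance were those of Rgs10, a regulator of G protein signalling, Rps16, a ribosomal protein, and Cops9, a COP9 signalosome subunit, with root mean square differences of 0.0474, 0.0476 and 0.0502 log2 units over the 7 libraries. The closest to Pdgfra among 8112 genes were Cyp2j6, a cytochrome P450 (0.0554), Isoc2a (0.0566) and the kinase gene Sgk2 (0.0607). None of these 6 is a listed lineage gene.

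**Figure D5:**
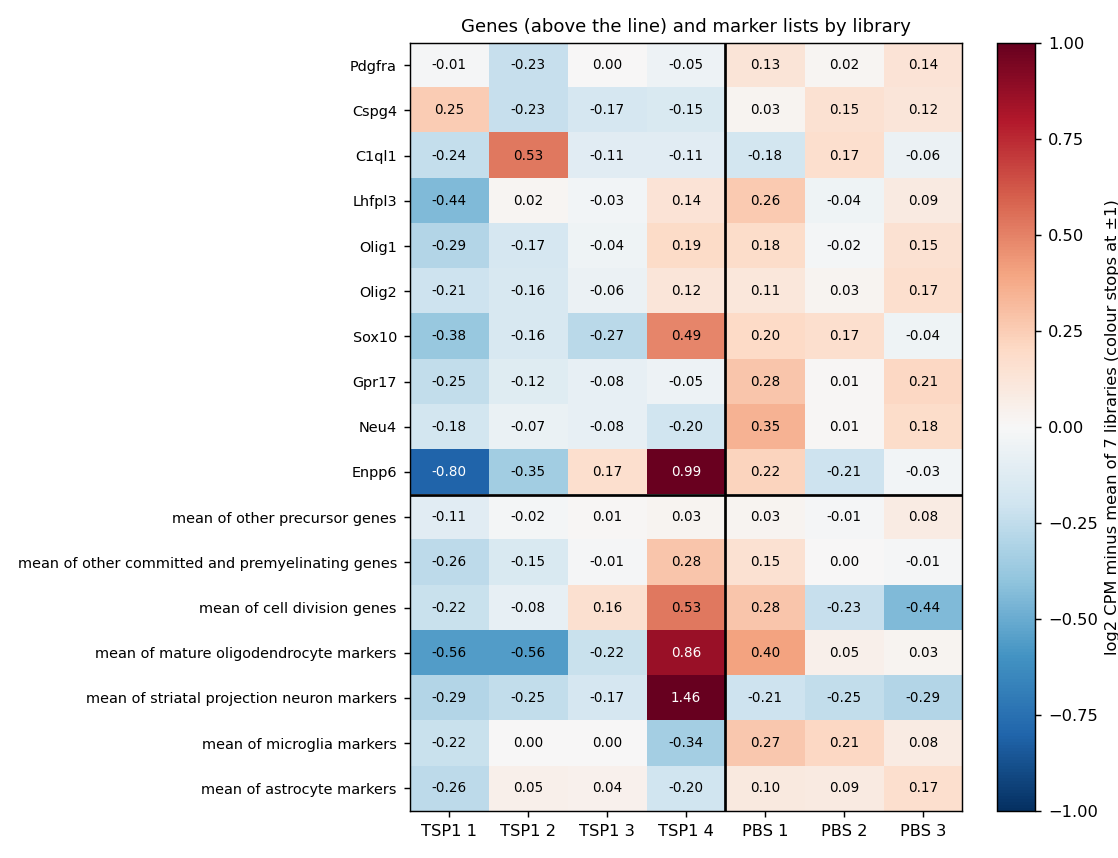
Log2 CPM of each gene (above the line) and mean of each marker list (below it), relative to the mean of the 7 libraries, TSP1 left of PBS. TSP1 replicate 4 is high in Enpp6 (0.99), Sox10 (0.49), cell division genes (0.53), mature oligodendrocyte markers (0.86) and striatal markers (1.46), but not in Gpr17 (-0.05) or Neu4 (-0.20).

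Other genes of the lineage gave 0 FDR calls in edgeR as well. Of 25 other precursor genes, 16 had fitted values below 0 (median -0.07). At an unadjusted p under 0.05, 5 were lower and 1 higher, against 5.44% and 4.21% of all tested genes. With no overlap between groups, 6 were lower and 1 higher, against 5.26% and 4.83% of all tested genes. Shc4, an adaptor of receptor tyrosine kinases, had 9.37, 8.61, 10.9 and 9.48 CPM with TSP1, against 11.2, 12.5 and 12.8 CPM with PBS (edgeR log2 fold change -0.34 ± 0.12 SE, adjusted p = 0.365). Matn4, a matrix protein of the matrilin family, had 15.3, 16.6, 16 and 17.1 CPM with TSP1, against 20.5, 18.7 and 18.4 CPM with PBS (edgeR log2 fold change -0.24 ± 0.09 SE). Both kept the groups apart, as did Megf11, a membrane protein with EGF-like repeats (edgeR log2 fold change -0.21 ± 0.08 SE). The gene of smallest p in the list was of the other sign. It was Dcc, the netrin receptor, which neurons express too, with 13.3, 11.7, 12.5 and 15.7 CPM with TSP1 against 9.89, 10.5 and 9.72 CPM with PBS (edgeR log2 fold change 0.40 ± 0.12 SE, adjusted p = 0.308).

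Of 24 tested other committed and premyelinating genes, 17 had fitted values below 0 (median -0.05). At an unadjusted p under 0.05, 1 was lower and 0 higher, against 5.44% and 4.21% of all tested genes. That gene was Samd4b, an RNA-binding translational repressor (edgeR log2 fold change -0.16 ± 0.07 SE, adjusted p = 0.492). Tns3, a tensin of focal adhesions found in premyelinating cells, had 82.1, 109, 104 and 117 CPM with TSP1, against 126, 111 and 118 CPM with PBS (edgeR log2 fold change -0.19 ± 0.10 SE, adjusted p = 0.597). The calcium-release channel gene Itpr2 and the adhesion gene Opcml had fitted values of 0.10 each. With no overlap between groups, 0 genes of the list were lower and 1, Itpr2, was higher, against 5.26% and 4.83% of all tested genes. Of the list, 11 of 24 genes were highest in TSP1 replicate 4. Without that library 20 of 24 were below 0 (median -0.16), with 9 lower at an unadjusted p under 0.05, against 5.41% of all genes tested then. The median was 0.02 without TSP1 replicate 1 and 0.03 without PBS replicate 1.

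Precursors share transcripts of cell division with every other dividing cell. The list used for them, which also holds the cycle inhibitors Cdkn1b and Cdkn1c, mostly had fitted values of the opposite sign to Pdgfra. Of 23 tested genes 18 had fitted values above 0 (median 0.15). There were 0 at an unadjusted p under 0.05, against 9.65% of all tested genes. Rrm1, a ribonucleotide reductase subunit, had 15.4, 14, 15.9 and 20.7 CPM with TSP1, against 15.2, 11.2 and 13.7 CPM with PBS (edgeR log2 fold change 0.30 ± 0.14 SE, adjusted p = 0.53), with overlapping groups. Cyclin A2 (Ccna2) and the ubiquitin-conjugating enzyme gene Ube2c were low, at 3.75 ± 0.636 and 0.99 ± 0.179 CPM (SD, n = 4) with TSP1 against 2.76 ± 0.605 and 0.602 ± 0.472 CPM (SD, n = 3) with PBS. Cyclin D1 (Ccnd1), which promotes entry into the cycle, had 27.6, 42.5, 34 and 32 CPM with TSP1, against 42, 36.2 and 45.6 CPM with PBS (edgeR log2 fold change -0.28 ± 0.13 SE). The list mean was -0.22, -0.08, 0.16 and 0.53 log2 units in TSP1 replicates 1 to 4, against 0.28, -0.23 and -0.44 in PBS replicates 1 to 3, so the groups overlapped. Without TSP1 replicate 4 the median was 0.05, with 14 of 22 genes above 0, without PBS replicate 3 it was 0.08, without TSP1 replicate 1 it was 0.33, and without PBS replicate 1 it was 0.41, with 8 genes higher at an unadjusted p under 0.05, against 3.68% of all genes tested then.

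Genes of signals that act on precursors had fitted values of both signs. Of 45 tested genes 29 had fitted values below 0 (median -0.08). At an unadjusted p under 0.05, 3 were lower and 3 higher, against 5.44% and 4.21% of all tested genes. Nrg1, a ligand of ErbB receptors, had 19.5, 13.8, 14.5 and 13.5 CPM with TSP1, against 9.94, 11.4 and 12 CPM with PBS, with no overlap (edgeR log2 fold change 0.46 ± 0.14 SE, adjusted p = 0.308). Tgfb1, a growth factor that microglia express, had 5.61, 5.6, 6.75 and 5.12 CPM with TSP1, against 8.79, 8.16 and 7.27 CPM with PBS, again with no overlap (edgeR log2 fold change -0.49 ± 0.15 SE, adjusted p = 0.311). The growth factor receptor Fgfr3, which is also an astrocyte marker, and the Notch ligand Jag1 overlapped between groups, with log2 fold changes of -0.25 (SE 0.08) and 0.49 (SE 0.17).

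Marker lists of microglia, astrocytes and endothelial cells mostly had fitted values of the same sign as Pdgfra, Gpr17 and Neu4, with 0 FDR calls. Of 10 excitatory neuron markers 8 were below 0 too (median -0.12), and 5 without TSP1 replicate 4. Of 10 inhibitory neuron markers 4 were below 0 (median 0.08), and 6 without TSP1 replicate 4 (median -0.06). With all 7 libraries, 3 of the inhibitory markers were lower and 1 higher at an unadjusted p under 0.05, against 5.44% and 4.21% of all tested genes. All 16 microglia markers and 15 of 16 astrocyte markers had fitted values below 0. Of these, 11 and 5 were lower at an unadjusted p under 0.05, against 5.44% of all tested genes. The summed microglia markers were at 582 to 740 CPM with TSP1 and at 764 to 891 CPM with PBS, and the astrocyte markers at 6028 to 7419 CPM with TSP1 and at 7008 to 8066 CPM with PBS. Of 14 endothelial markers 13 had fitted values below 0, and 5 were lower at an unadjusted p under 0.05. Their sum was 395 to 503 CPM with TSP1 and 504 to 570 CPM with PBS. TSP1 replicate 4 was the lowest library for 13 of the 16 microglia markers and 9 of the 14 endothelial markers. Without it 15 of 16 microglia markers were below 0, with 8 lower at an unadjusted p under 0.05, against 5.41% of all genes tested then. Without PBS replicate 1, 6 microglia markers were lower at that p, against 4.87% of all genes tested then. Without TSP1 replicate 4, 10 of 14 endothelial markers were below 0, with a median of -0.09 against -0.16 with it. Without TSP1 replicate 4 the astrocyte count was still 15 of 16. In all 7 libraries the microglia and endothelial sums did not overlap between groups, and the astrocyte sums did. None of these markers was at 0 counts in a library. Whether the values of Gpr17, Neu4 and Pdgfra move apart from those of these other cells was not tested.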

How the data were processed

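RNA was measured in 7 mouse libraries, each made from 1.3 µg of total RNA with a SMARTer mRNA kit, per the labels' protocols. The authors deposited unnormalised gene counts, since the values are whole numbers and their totals differ between libraries. The submitters' processing notes name GRCm38 and mm10, while aligner, counting tool and use of strand were not given in the sources used here. Each column was assigned through the number that opens a sample description, and 0 columns belonged to other samples. Identifiers were matched to GENCODE M21 (GRCm38), with 25375 of 25467 matched. Coordinates count from 1, and exon length is that of merged exons. Other genes share exon bases with 4 of the 10 genes. Apart from a microRNA within Pdgfra these lie on the opposite strand, so whether their reads were told apart depends on the use of strand.

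Tests used edgeR 4.0.16 in R 4.3.3 (filterByExpr, TMM, robust quasi-likelihood fit, 7 libraries, group as the only term, two-sided tests, Benjamini-Hochberg adjustment over 17211 genes). SE is the absolute fitted log2 value divided by the root of F. The script was tested on simulated data. Log2 CPM used a prior count of 2. P-values set the difference between groups against the spread between libraries of a group, as estimated with information from all genes. That spread holds differences of mice, dissection and library making together. The counting error given covers counting only. The 10 genes and all gene lists were chosen with earlier results of these data known. The rule for naming other genes took, from each of 4 lineage lists, the 4 genes of smallest p, and Pdgfrb, Dcn and Col1a1 whatever their result. Same-numbered libraries were not paired: their deviations from the group means correlated at -0.261, -0.033 and 0.01. Replicates of a group differed by more than sampling noise (chi-square per degree of freedom at least 4.26).

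Alternatives were RLE and upper quartile factors, DESeq2 1.42.0, edgeR's exact test, limma-voom (limma 3.58.1), no filter, a filter of 5 CPM in 3 libraries, a replicate block, per-library correction for GC content and exon length (splines with 4 degrees of freedom), and leaving out each library.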

Additional observations from a re-analysis of the deposited data

Results flagged for a closer look

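Within the 4 TSP1 libraries, the highest value lay far from the rest for 4 of the 47 genes and list means examined, by the gap to the next library as a share of the group's range. For C1ql1 the gap was 0.862 of the range, with 12 CPM in TSP1 replicate 2 against at most 7.68 CPM in the other TSP1 libraries. For Cspg4 it was 0.846, with 37.4 CPM in TSP1 replicate 1. For Nrg1 it was 0.831, also in TSP1 replicate 1, with 19.5 CPM. For the mean of the striatal projection neuron markers it was 0.929, with a log2 CPM of 1.46 in TSP1 replicate 4 relative to the average library, against -0.29 to -0.17 in the other TSP1 libraries. Chance alone marks about 1 in 20 such groups.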

How the results depend on the processing

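None of the 10 genes passed an adjusted p of 0.05 under any of the 16 alternatives, with adjusted p-values from 0.0861 to 0.997. Pdgfra, Cspg4, Lhfpl3, Olig1, Olig2, Sox10, Gpr17 and Neu4 kept values below 0 in all 16, Gpr17 between -0.36 and -0.23 and Neu4 between -0.40 and -0.23. Enpp6 turned to -0.27 without TSP1 replicate 4 and to -0.31 with the replicate block, in which TSP1 replicate 4, having no partner, carries no weight. C1ql1 turned to -0.13 without TSP1 replicate 2 and -0.01 without PBS replicate 1. With 1 library left out, Enpp6 ranged from -0.27 to 0.37 and C1ql1 from -0.13 to 0.18. The correction for exon length and GC content left Gpr17 at -0.29 and Neu4 at -0.33 and moved C1ql1 to 0.21, Sox10 to -0.06 and Olig1 to -0.08. The replicate block called 0 genes, and same-numbered libraries did not correlate best with each other. Calls over all genes numbered 88 in DESeq2, 107 in the exact test, 19 with no filter, and 0 to 9 with 1 library left out, the most without PBS replicate 3. The cause was not tested. The number of the 10 genes with no overlap ranged from 3 to 6 with 1 library left out, while 7.26% to 9.92% of all genes tested were then lower with no overlap. The median ranged from -0.17 to -0.12 for dividing precursor genes, from -0.27 to -0.11 for whole-lineage genes (-0.08 with the length and GC correction) and from -0.36 to -0.23 for committed genes. The committed minus precursor difference ranged from -0.19 to 0.01, and was -0.19 with the replicate block. DESeq2, the exact test and limma-voom do not recompute it or the overlap of groups. Of the genes named, Ccna2 and Ube2c were not tested with the filter of 5 CPM. The values of Enpp6 and C1ql1 are imprecise. Their coefficients of variation over the 7 libraries were 42.7% and 20.7%, against counting errors of 7.12% and 8.16% at their mean counts.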
